A study of Glycyrrhiza uralensis with 24 samples.

Results

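RNA-seq libraries of the aerial parts of Glycyrrhiza uralensis, a licorice legume, were compared between 12 h and 6 h in 150 mM NaCl. All libraries labelled as stems and leaves at these times were taken, 3 at 12 h and 3 at 6 h, which are 6 of the 24 libraries of the series. The plants were seedlings of 60 days that had stood 1 week in hydroponic culture before NaCl was added to an MS nutrient solution, and both groups carry the same treatment for different times. Other libraries did not enter the difference between these 2 times. Those of aerial parts at 2 h entered its filter on low values and its estimate of the spread. Root salt libraries entered the tests of roots and of the difference between organs. The other libraries were aerial parts after 2 h in NaCl, roots of the same salt times, and aerial parts and roots labelled as kept in distilled water (0 h), 3 libraries each. The treatment text of the labels speaks of drought as well as of NaCl. It gives no water control at 6 h or 12 h, so changes with hours in salt cannot be told apart from changes with the hour of the day. It does not say whether a library is 1 plant or a pool, or whether libraries came from separate plants, so p-values measure the spread between these libraries.

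Salt around the root lowers water uptake within hours, and Na+ reaches the leaves later with the transpiration stream. In leaves, abscisic acid then closes stomata and switches on genes for protective proteins and compatible solutes, and over a longer time growth and photosynthesis genes are lowered. Many leaf genes also follow the day and the circadian clock. Licorice is used for glycyrrhizin, a triterpenoid saponin, and for flavonoids such as liquiritin, and the study asked how salt affects the genes behind these compounds. The deposited files give gene IDs and do not pair them with gene names, so the changes below are described by level, time course and organ. For the same reason the labelled tissue could not be checked against leaf or root marker genes.

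The files hold TPM, which corrects each ID for its length and each library for its total, for 34445 IDs. The depth of the libraries is unknown, since TPM does not hold it. In the 6 libraries the listed IDs summed to 434718 to 464212 TPM, with 18070 to 18729 IDs above 0. The summed TPM was 451570 ± 9853 at 12 h and 452940 ± 15929 at 6 h (SD, n = 3 each; two-sided exact permutation p = 0.9, where 0.1 is the smallest that 3 against 3 allow). The 6 h replicate 2 library stood apart. Its log2 levels correlated with the other 5 libraries at r = 0.79 to 0.81 over genes, against 0.87 to 0.93 among those 5.

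In the aerial parts, 207 of 15548 genes tested differed between 12 h and 6 h, of which 71 were higher and 136 lower at 12 h. These are 1.33%, 0.457% and 0.875% of the genes tested. Calls were made where the adjusted p (Benjamini-Hochberg) was under 0.05 in limma, a linear model with variances shared over genes, on log2(TPM + 1), a scale on which the changes of low genes are understated. The median log2 difference, 12 h minus 6 h, was 1.64 over the 71 risen genes, -2.17 over the 136 fallen genes and 0.02 over all genes tested. In 71 of the 71 risen genes every 12 h library lay above every 6 h library, and in 136 of the 136 fallen genes every 12 h library lay below. Over all genes tested these patterns held in 12.9% and 9.11%. The calls rest on these same libraries, so the separation of called genes follows in part from the choice and is no further result. A lower level in such bulk samples may mean fewer cells that express the gene or less RNA per cell, and these cannot be told apart. Without adjustment, 2163 genes (13.9%) had a p under 0.05, and 219 genes had an adjusted p between 0.05 and 0.10. The count was 90 without 6 h replicate 1, 200 without the 6 h replicate 2 that stood apart, and 114 without 6 h replicate 3. Leaving out a 12 h library gave 57 (replicate 1), 53 (replicate 2) and 78 (replicate 3). With library quality weights it was 713, with 367 higher and 346 lower, so the larger number of falls did not hold under these weights, and with a 2-fold minimum it was 18.

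**Figure D1:**
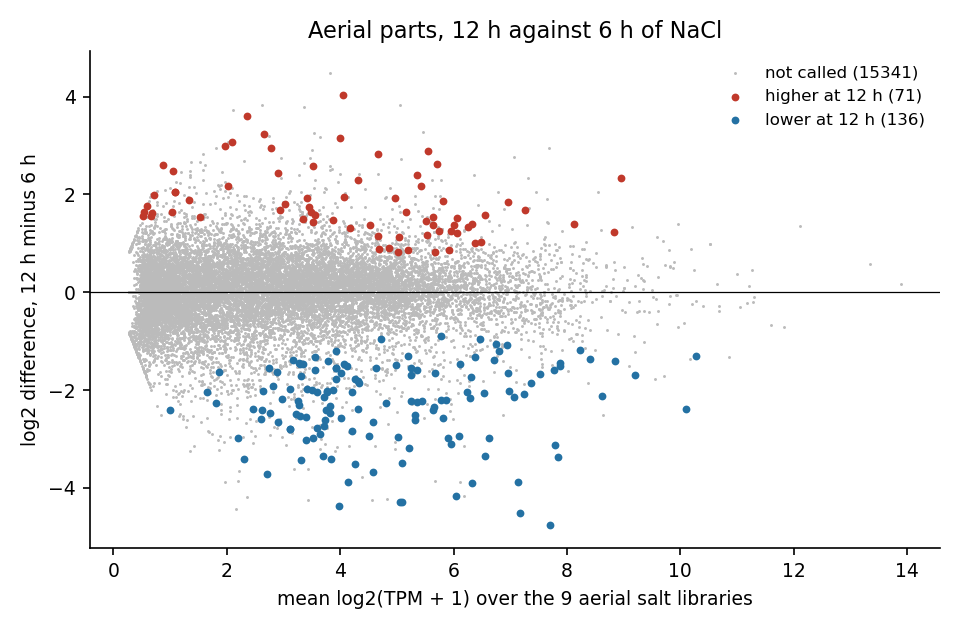
Each point is a gene tested in aerial parts, with its mean log2(TPM + 1) over the 9 aerial salt libraries across and its log2 difference, 12 h minus 6 h, upward. The 71 red points (higher at 12 h) and 136 blue points (lower at 12 h) are called genes, and the 15341 grey points are not called.

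The fallen genes had the larger median change. In the group where a gene was higher, the median level was 48.3 TPM for the risen and 42.6 TPM for the fallen genes, so peak levels were alike in size. Of the fallen genes, 23 changed by 3 or more on the log2 scale and 59 by 2 to 3, while of the risen genes 5 changed by 3 or more and 16 by 2 to 3. By the mean over all 9 aerial salt libraries, which holds the values by which genes were called, falls were a larger share of the abundant genes. At 100 TPM or more, 33 of 756 fell and 7 rose, or 4.37% and 0.926%. Between 10 and 100 TPM, 86 of 5238 fell and 42 rose, or 1.64% and 0.802%. Between 1 and 10 TPM, 17 of 7478 fell and 17 rose, which is 0.227% in each direction. Between 0.5 and 1 TPM, 0 of 2076 fell and 5 rose, or 0% and 0.241%. Low genes had a larger spread between replicates, with a median residual SD of 0.56 on the log2 scale at 1 to 10 TPM against 0.34 at 100 TPM or more. The part of this spread in the shares called was not tested. The mean over 9 libraries also places fallen genes higher, since their median level at 2 h was 45.7 TPM, against 9.61 TPM for the risen genes. In the group where a gene was higher, 39 of 136 fallen and 23 of 71 risen genes were at 100 TPM or more. The shares by mean level are therefore given as a description. At 12 h the fallen genes were mostly low rather than absent, with 75 of 136 under 10 TPM and 15 under 1 TPM in the 12 h mean.

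The largest fall was that of Glyur001030s00028210. It stood at 15.5, 12.8 and 25.95 TPM at 12 h, against 473, 407 and 633 TPM at 6 h (log2 difference -4.76, SE 0.29, limma adjusted p = 0.00118). The groups were far apart, and its levels at 2 h were higher still, at 831, 958 and 1241 TPM. In the 9 root salt libraries it was between 0.17 and 1.26 TPM, so its transcript was found almost wholly in aerial parts. Glyur000009s00001459 followed the same course, with 17.05, 9.09 and 19.1 TPM at 12 h, against 346, 289 and 436 TPM at 6 h (log2 difference -4.52, SE 0.3, limma adjusted p = 0.00122). Its 2 h libraries held 452, 499 and 707 TPM, and water controls 92.5, 73.1 and 188 TPM, so the 12 h libraries lay below every control library. Both calls held under each of the 18 alternative settings.

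The largest rise was that of Glyur000253s00020238. It reached 111, 246 and 122 TPM at 12 h, against 11.9, 9.59 and 4.63 TPM at 6 h (log2 difference 4.04, SE 0.45, limma adjusted p = 0.00516). At 2 h it was at 2.04, 4.24 and 1.21 TPM, so the 3 salt times did not overlap and the level was higher at each later time. Glyur000677s00026182 had another course. It stood at 18.6, 8.77 and 8.51 TPM at 12 h while each of the 3 libraries at 6 h listed it at 0 (limma adjusted p = 0.00516), and at 2 h it was at 6.25, 10.65 and 15.0 TPM. Its 6 h libraries were thus below both neighbouring times. In roots it was low throughout, listed at 0 in the 3 libraries at 6 h and in the 3 water controls. Root libraries held 2.33, 6.29 and 0.47 TPM at 2 h and 0.01, 1.26 and 0.14 TPM at 12 h. Both calls also held under each of the 18 settings.

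**Figure D2:**
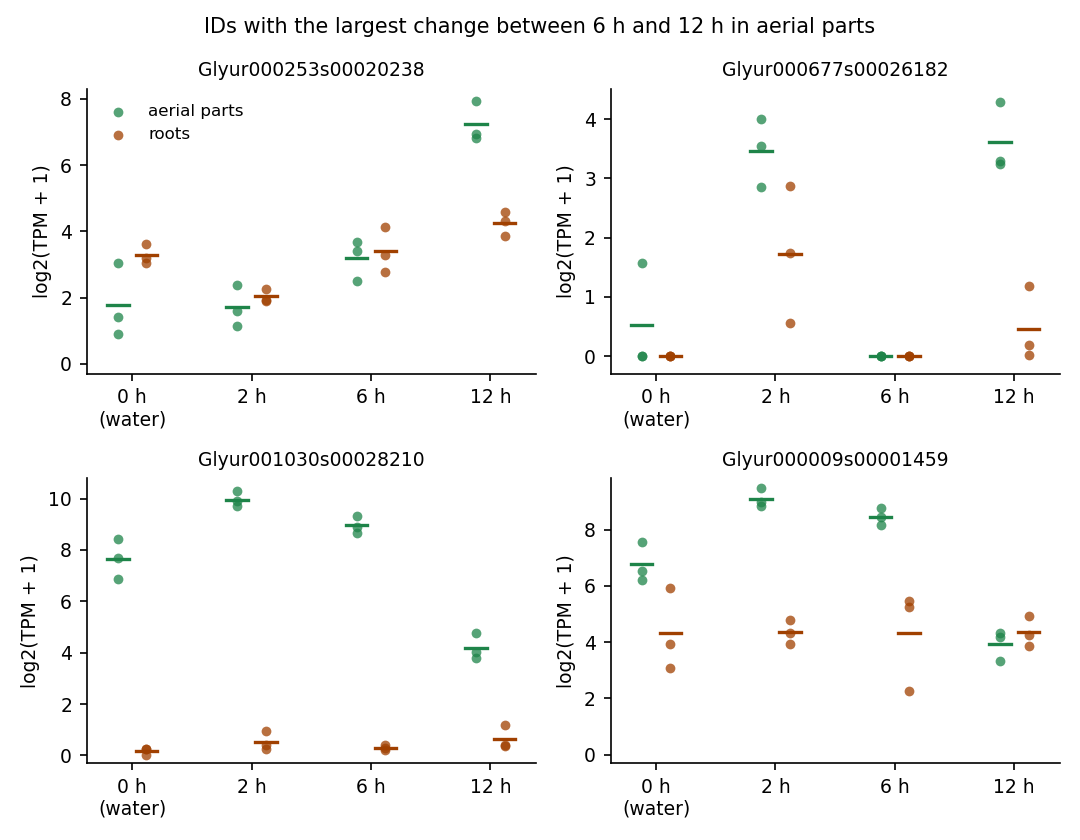
Log2(TPM + 1) of the 2 IDs that rose most (top) and the 2 that fell most (bottom) between 6 h and 12 h in aerial parts, by time in NaCl, with green points for aerial libraries, brown points for root libraries and bars for the mean of 3. Glyur001030s00028210 and Glyur000009s00001459 are high in aerial parts at 2 h and 6 h and low at 12 h, while their root values are near 0 or overlap between the 2 times.

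The risen genes took up a larger part of the libraries at 12 h, and most of that part was a single gene. Summed over the 71 genes, the level was 14577, 17873 and 18422 TPM at 12 h, against 4992, 3802 and 3861 TPM at 6 h. Glyur000380s00017141, chosen after its values were seen as the most abundant risen gene, held 59.4% to 65.5% of the 12 h sums. It stood at 8656, 11669 and 12073 TPM at 12 h, against 2892, 1871 and 1725 TPM at 6 h (log2 difference 2.34, SE 0.42, limma adjusted p = 0.0379). Its course was not a steady climb, since it was at 5.11, 8.05 and 1.75 TPM at 2 h and ranked between 12 and 35 of all IDs in water controls. At 12 h it ranked 2 or 3 of all IDs in each library, and in root salt libraries it was at 0.33 to 11.4 TPM. Its call was lost when any 1 of the 6 libraries was left out (limma adjusted p = 0.0657 to 0.162) and when all 18 salt libraries were fitted, both without the replicate block (limma adjusted p = 0.12) and with it (limma adjusted p = 0.135). Its limma adjusted p ranged from 0.0125 to 0.835 over 18 settings. Without this gene the other risen genes summed to 5921, 6205 and 6349 TPM at 12 h, against 2100, 1931 and 2136 TPM at 6 h. These sums are over genes chosen for their rise and are given as a description.

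Summed over the 136 fallen genes, the level was 4101, 3844 and 4318 TPM at 12 h, against 16390, 16281 and 16117 TPM at 6 h. That is 0.848% to 0.979% of the listed TPM at 12 h, against 3.53% to 3.71% at 6 h. At 2 h the same genes summed to 22309 to 23897 TPM and in water controls to 12777 to 17010 TPM. The 12 h libraries were the lowest of the 4 aerial groups, with no overlap. These genes were chosen for a low level at 12 h against 6 h, so their sums too are given as a description.

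**Figure D3:**
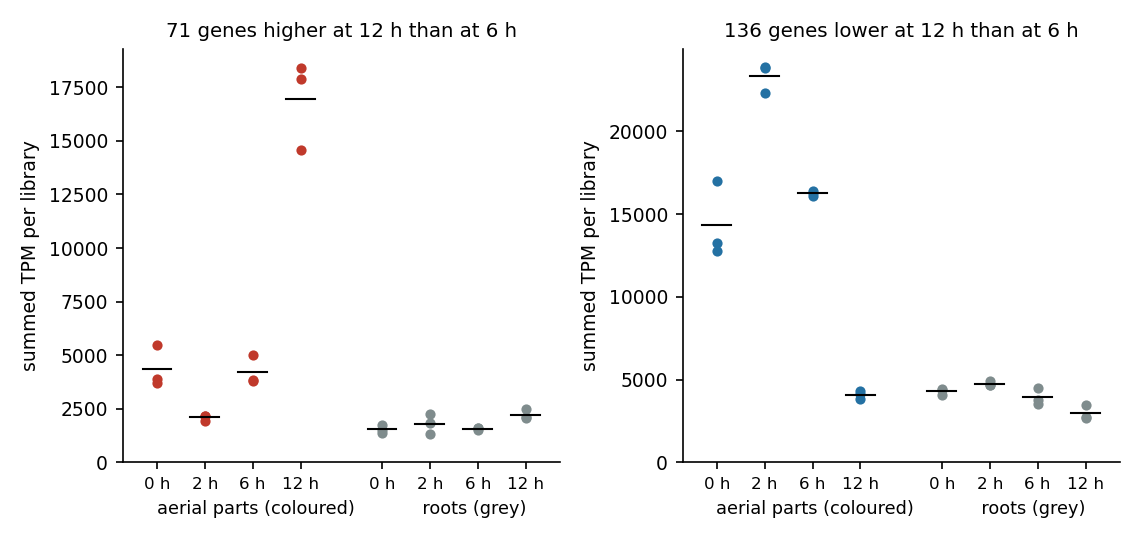
Summed TPM per library of the 71 genes higher (left) and the 136 genes lower (right) at 12 h than at 6 h, by time in NaCl, with 0 h for water; points are libraries and bars are means of 3. In aerial parts (coloured) the fallen genes sum to 3844 to 4318 TPM at 12 h, against 16117 to 16390 at 6 h, and roots (grey) hold 2702 to 4913 TPM of them in salt.

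The 2 h libraries entered the filter on low values and the estimate of the spread, but not the difference by which genes were called. Genes called for a wide gap between 12 h and 6 h, with high or low ends there, set where a further group can fall, so the positions below are given as a description. Of the 136 fallen genes, 87 (64%) had a 2 h mean above that of 6 h, so their level was lower at each later salt time. Among all 7478 tested genes with a lower 12 h than 6 h mean on the log2 scale, 39.5% had this order. For these 87 genes the median log2 difference was -0.70 for 6 h minus 2 h and -2.24 for 12 h minus 6 h. A further 45 fallen genes lay between the 12 h and 6 h means at 2 h, with a median of 0.47 for 6 h minus 2 h, so 6 h was their highest salt time. In 4 fallen genes the 2 h mean was below both later ones. Glyur000015s00000787, chosen after its values were seen, was 1 of these, with 1.3, 0.8 and 1.05 TPM at 2 h, then 48.0, 49.3 and 44.7 TPM at 6 h, then 9.06, 13.7 and 11.4 TPM at 12 h. Its aerial water controls held 40.4, 49.9 and 26.1 TPM. The 6 h libraries thus overlapped the controls, while those at 2 h and 12 h lay below every control.

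Of the 71 risen genes, 33 (46.5%) had a 2 h mean below that of 6 h, close to the 45.1% of all 8033 tested genes with a higher 12 h than 6 h value. Another 36 (50.7%, against 30.3% of all such genes) lay between the 6 h and 12 h means at 2 h, so that 6 h was the lowest salt time. Their median log2 difference was -0.41 for 6 h minus 2 h and 1.64 for 12 h minus 6 h. A 2 h mean above both was found in 2 risen genes, against 24.6% of all such genes. Genes listed at 0 in all 3 libraries at 6 h numbered 8 of the 71. At 12 h these 8 were between 1.36 and 18.62 TPM, and only Glyur000677s00026182 had a 12 h mean of at least 10 TPM. Of the 8, 4 were also listed at 0 in every 2 h library, so they passed the filter only through their 12 h level. In every water control 2 of the 8 were listed at 0. Over all 34445 IDs, 91 were at 0 in all 6 h libraries and above 0 in all 12 h libraries, and 123 showed the reverse. With at least 1 TPM in all libraries of the higher group, these counts were 14 and 10. The median over the risen genes was 1.63 without these 8, and -2.16 over the fallen genes without the 1 that was listed at 0 in all 12 h libraries.

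Water controls mostly lay between the 2 times. In 108 of the 136 fallen genes (79.4%) the control mean lay between the 12 h and 6 h means, against 31.4% of all tested genes of that direction. It lay above both in 28 (20.6%, against 47%) and below both in 0 (against 21.6%). In 42 of the 71 risen genes (59.2%, against 31.1% of all tested genes of that direction) it lay between. It lay below both in 28 (39.4%), near the 37.1% of all such genes, and above both in 1 (1.41%, against 31.9%). The choice of genes by a wide gap favours a control mean between the 2 times here as well. Control libraries differ from salt libraries in medium and title pattern, so a batch cannot be told apart from salt in these values.

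**Figure D4:**
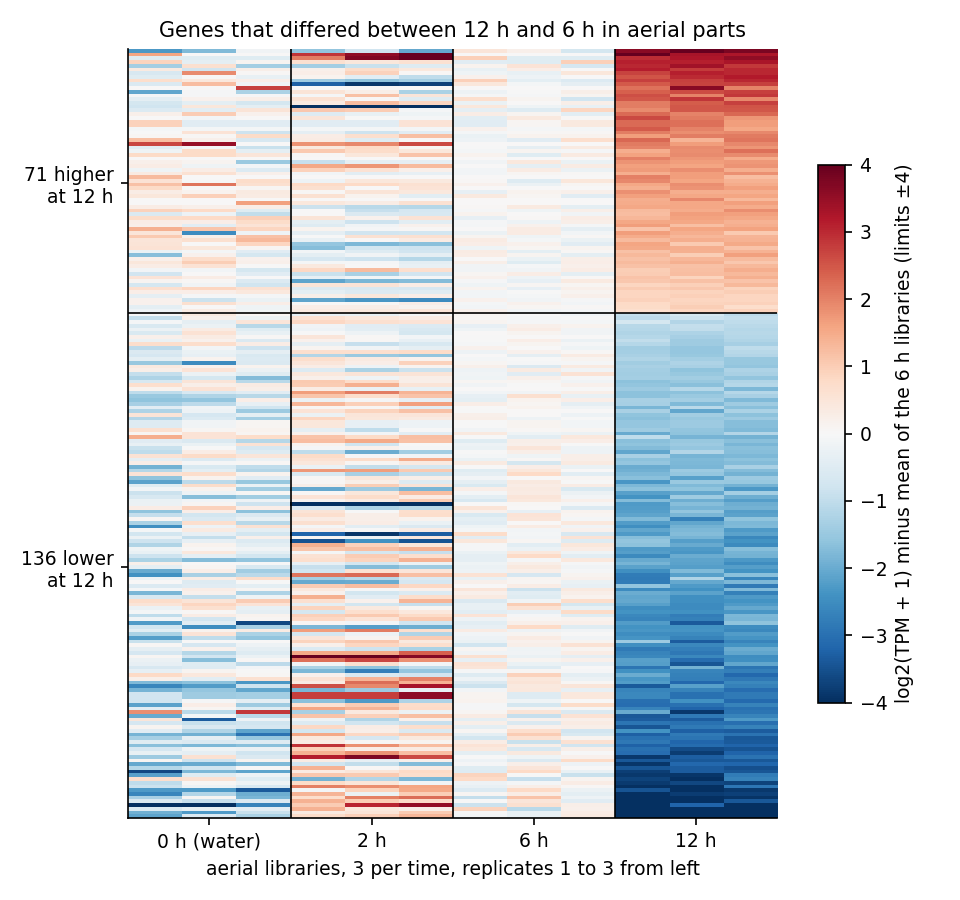
Log2(TPM + 1) of each called gene in the 12 aerial libraries, minus its mean over the 6 h libraries, with colours limited to ±4 and genes in the order of their 12 h minus 6 h difference. The 71 risen genes are red and the 136 fallen genes blue in each of the 3 libraries at 12 h, and most fallen genes are red or pale at 2 h.

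Many of the fallen genes were aerial genes. In water controls, which the comparison did not use, 73 of the 136 (53.7%) had a mean at least 4-fold higher in aerial parts than in roots on the TPM + 1 scale, against 9.23% of all 15548 genes tested. The share was 26.8% of the risen genes (19 of 71). Among genes that averaged 10 TPM or more in the aerial salt libraries, the shares were 55.5% of 119 fallen genes, 38.8% of 49 risen genes and 17.2% of all 5994 genes. Genes at least 4-fold higher in root controls were few, with 3 of the fallen and 2 of the risen genes, or 2.21% and 2.82%, against 6.73% of all genes tested. A fall can be called only in a gene with a level to lose in aerial parts, so the choice favours genes of aerial parts. The cut at 10 TPM does not match the levels above it, and these shares are given as a description.

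Roots at the same times were compared in the same way, to see whether the aerial changes were shared. No risen gene and 8 fallen genes were called among 16037 tested, which is 0% and 0.0499%, and 1459 genes had an unadjusted p under 0.05. Of the 136 genes that fell in aerial parts, 105 passed the filter on low values in roots, and 76 of these (72.4%) had a lower level at 12 h than at 6 h there, against 49.4% of all genes tested in roots. Their median log2 difference was -0.42 in roots and -2.04 in aerial parts, where a large value was the ground for choosing them, so the gap between these medians is partly set by the choice. At an unadjusted p under 0.05, 26 of the 105 (24.8%) were lower in roots, against 5.49% of all root genes, and 0 were higher. Of the 71 genes that rose in aerial parts, 55 were tested in roots, where their median log2 difference was 0.16, against 1.59 in aerial parts. Of these 55, 32 (58.2%) were higher in roots, against 50.4% of all root genes, and 11 (20%) were higher and 1 lower at an unadjusted p under 0.05, against 3.61% of all root genes higher. An aerial and a root library share each title number and deviated together, with residual correlations of 0.2 to 0.57 over genes, so the organs are not independent samples. The root count was 1, 6 and 134 without root 6 h replicates 1, 2 and 3, and 0 without root 12 h replicate 2 or 3. Of the 1, 6 and 134 calls, 0, 2 and 5 were higher at 12 h. Without root 12 h replicate 1 there were 2 calls, both higher at 12 h, and 0 of the 8 falls was kept. With the replicate block, fitted over the 18 salt libraries of both organs, the root count was 40 (7 higher, 33 lower). Without the block in the same libraries it was 34 (7 higher, 27 lower). The absence of called rises in roots thus depended on the setting.

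In 3 genes the fall was called in both organs, which is 37.5% of the 8 root calls and 2.21% of the 136 aerial falls. These 3 were named because they are few, after their values were seen. Glyur000003s00001251 was listed at 0 in all 3 aerial libraries at 12 h, against 8.25, 6.04 and 17.2 TPM at 6 h, and in all 3 root libraries at 12 h, against 7.28, 6.32 and 12.7 TPM at 6 h. Glyur000015s00000787, whose aerial values are given above, was at 0.28, 0.76 and 0.28 TPM in roots at 12 h, against 11.6, 8.09 and 9.28 TPM at 6 h. Glyur000268s00013359 was at 41.8, 50.03 and 39.45 TPM in aerial parts at 12 h, against 116, 255 and 109 TPM at 6 h. In roots it was at 5.85, 8.62 and 8.58 TPM at 12 h, against 56.5, 141 and 68.8 TPM at 6 h. The limma adjusted p was 0.0415 for each in roots, and 0.00516, 0.00516 and 0.0463 in aerial parts in the order given. Of 18 settings, the root calls were lost in 9, 9 and 10 and the aerial calls in 1, 1 and 10, in the same order.

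The difference between the organs was tested itself, as the aerial change from 6 h to 12 h minus that of roots. It was called for 54 of 16522 genes (0.327%), 24 with a higher (0.145%) and 30 with a lower (0.182%) aerial change. Of these, 43 were among the 207 genes called in aerial parts, which is 79.6% of the 54 and 20.8% of the 207. The 43 were 14 risen and 29 fallen genes. The aerial change by which the 43 were chosen is a term of this difference, so their sign is no further result. The other 11 were not called in aerial parts, and 10 of them had the higher aerial change. At an unadjusted limma p under 0.05, 11 of these 11 differed in roots and 7 in aerial parts, where 2 were not tested. A higher aerial change is relative to roots and need not be a rise in aerial parts. Of the 54 genes, 32 passed the filter on low values in roots. The other 22, all among the 43, entered through their aerial level, and for them the organ difference mostly restates the aerial change. With the title number as a replicate block there were 186 such genes (84 higher, 102 lower), which included each of the 54. The count was 34 without aerial 6 h replicate 3 and 25 without aerial 12 h replicate 2. It was 33 without root 6 h replicate 1, and 33, 25 and 33 without root 12 h replicates 1, 2 and 3. With library quality weights it was 211, and it was 20 and 91 with pseudocounts of 0.1 and 5 TPM.

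Glyur001030s00028210 was 1 of these 22, with an organ difference of -5.11 (SE 0.42, limma adjusted p = 7.24e-05). Its root level, given above, left no room for a fall there. Glyur000139s00009305 differed by -5.26 (SE 1.03, limma adjusted p = 0.0419). In aerial parts it was at 2.82, 0.96 and 5.89 TPM at 12 h, against 69.9, 99.4 and 52.1 TPM at 6 h, and in roots at 65.4, 23.9 and 43.4 TPM at 12 h, against 28.7, 13.1 and 21.8 TPM at 6 h. Its organ call was lost in 16 of 24 settings (limma adjusted p = 0.01 to 0.318 over all 24), while its aerial fall was called in each of 18. Glyur000119s00012196 rose in aerial parts, with 151, 208 and 237 TPM at 12 h against 29.2, 21.98 and 26.2 TPM at 6 h. In roots it stood at 2.41, 2.65 and 5.07 TPM at 12 h, against 5.6, 5.97 and 9.36 TPM at 6 h, and the organs differed by 3.77 (SE 0.55, limma adjusted p = 0.00601). A rank was taken among called genes that averaged 10 TPM or more in a group, with no overlap between the times in aerial parts. Among these, Glyur000224s00017370 had the largest positive organ difference, 5.09 (SE 0.69, limma adjusted p = 0.00317), although neither organ's change was called alone. It was at 24.2, 25.3 and 19.95 TPM at 12 h in aerial parts, against 2.3, 11.5 and 3.59 TPM at 6 h (limma adjusted p = 0.0818). In roots it was at 2.17, 1.35 and 0 TPM at 12 h, against 17.2, 18.4 and 10.4 TPM at 6 h (limma adjusted p = 0.163). The organs thus had opposite orders of the 2 times, with no overlap in either.

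Organ differences were also called for Glyur000253s00020238, at 3.17 (SE 0.6, limma adjusted p = 0.0356), and Glyur000009s00001459, at -4.55 (SE 0.88, limma adjusted p = 0.0384). In roots Glyur000253s00020238 was at 23.1, 13.6 and 19.1 TPM at 12 h, against 16.4, 8.74 and 5.85 TPM at 6 h, with overlap between the times. Glyur000009s00001459 was at 13.7, 29.3 and 18.2 TPM in roots at 12 h, against 43.6, 3.79 and 36.6 TPM at 6 h, also with overlap. These 2 organ calls were lost in 16 and 14 of 24 settings, with limma adjusted p of 0.00612 to 0.648 and 0.00243 to 0.36. Glyur000626s00022213, named for its fall in roots, was at 37.2, 46.4 and 31.2 TPM in aerial parts at 12 h, against 39.4, 35.85 and 40.5 TPM at 6 h, and in roots at 0.51, 0.13 and 0.69 TPM at 12 h, against 12.9, 42.8 and 13.3 TPM at 6 h (organ difference 3.82, SE 0.51, limma adjusted p = 0.00317). The root fall of this ID was called (limma adjusted p = 0.0415), a call lost in 10 of 18 settings, while its organ difference was called in each of 24. In aerial parts its times overlapped. Glyur001501s00031069, the other ID named for its root fall, was listed at 0 in each root library at 12 h, against 41.0, 42.4 and 12.4 TPM at 6 h (limma adjusted p = 0.0415), a call lost in 11 of 18 settings.

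**Figure D5:**
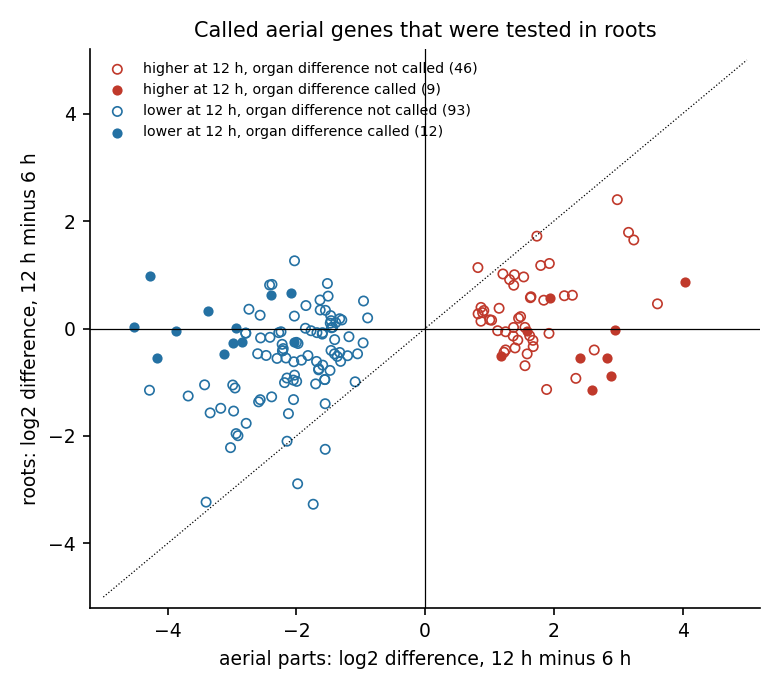
Log2 difference, 12 h minus 6 h, in aerial parts (across) and in roots (upward) for the 160 called aerial genes that were tested in roots; red and blue mark genes higher and lower at 12 h in aerial parts, filled points a called organ difference (9 and 12 genes), and the dotted line equal changes. The genes were chosen for their aerial change, so smaller values in roots are partly set by the choice.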

How the data were processed

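The authors deposited 1 table per library with a TPM value per row, the unit given in the file headers. Tools listed in the submitters' processing notes are edgeR, DESeq2, RSEM, StringTie, HISAT2 and fastp. Which step each tool did, its version and the reference used were not stated there. Values of 38135 rows were summed to 34445 IDs (2751 with several rows, up to 8). The listed TPM covered 43.5% to 46.4% of the full scale in the 6 libraries, so part of what TPM was scaled over is not listed. No pair of libraries had identical values.

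Two-sided limma tests (version 3.58.1, trend on, R 4.3.3) were run on log2(TPM + 1) of the genes that averaged 0.5 TPM or more in the libraries fitted, as planned for TPM. The aerial and root fits each held the 9 salt libraries of the organ, the 2 h libraries for the filter and the spread, and the organ difference all 18. Exact permutation used scipy 1.17.1 in Python 3.11.15, and 4 library measures were tested. The pipeline was also run on simulated data with known changes, as a check of the size of its estimates. Errors there were independent between libraries, so a pairing of libraries was not covered. No block entered the aerial, root and organ fits. Each aerial salt library shares a title number with 1 root library. The residuals of 9 of 9 such pairs correlated over 0.1, so the numbers were taken to pair the libraries, and the replicate block (limma duplicateCorrelation, within-pair correlation 0.31) is an alternative. Residuals within a group of 3 sum to 0, so the 3 pairs of a time are not independent of each other.

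The IDs in the text follow a rule: per comparison the 2 that rose and the 2 that fell most, if called, with a mean of at least 10 TPM in a group and no overlap between 12 h and 6 h (for the organ difference, in aerial parts). Exceptions are marked. Gene lists and marker genes were planned and could not be matched to IDs. Members, lists and tests were chosen with earlier results of these data known. Alternatives were the pseudocount, the filter, 2 scalings, other sets of libraries, a 2-fold minimum, library weights, the block, single rows and each library left out.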

Additional observations from a re-analysis of the deposited data

Results flagged for a closer look

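The change from 6 h to 12 h differed between aerial parts and roots for 54 genes in the test of the difference itself. Of these, 22 did not pass the filter on low values in roots, where they had little level to change. Among the IDs given, the aerial change minus the root change on the log2 scale was -5.26 for Glyur000139s00009305, -5.11 for Glyur001030s00028210 (1 of the 22) and -4.55 for Glyur000009s00001459. It was 5.09 for Glyur000224s00017370, 3.82 for Glyur000626s00022213, 3.77 for Glyur000119s00012196 and 3.17 for Glyur000253s00020238. The groups hold 3 libraries each, so outlying libraries within a group were not tested for.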

How the results depend on the processing

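The 207 aerial calls became 132 with no filter on low values, 124 with only the 6 libraries compared, 18 with a 2-fold minimum, 713 with library quality weights and 314 with 18 salt libraries and no replicate block (added after the data were seen), and 53 to 200 with 1 library left out. With the replicate block there were 300. The other settings, pseudocounts, scalings, a filter of 1 TPM, added controls (233 genes) and single rows, gave 151 to 233. None of the called aerial genes that were still tested changed sign under 18 settings, 44 (9 higher, 35 lower) were called with each library left out in turn, and 206 of the 207 with library weights. Median-of-ratios scaling left 27.2% of calls higher, against 34.3%.

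In roots, the count of 8 calls became 1, 2 and 0 with pseudocounts of 0.1 and 5 TPM and no filter (limma, with 1430, 1458 and 1901 genes at an unadjusted p under 0.05). They became 5 with median-of-ratios scaling, 13 with scaling to the listed total, 2 with only the libraries compared (0 of the 8 among them), 13 with controls added, 0 with a 2-fold minimum (202 at an unadjusted p under 0.05), 16 with library weights, 40 with the replicate block and 34 without it in the same libraries. With 1 library left out there were 0 to 134. At 0 calls, without root 12 h replicates 2 and 3, limma gave 869 and 1161 genes at an unadjusted p under 0.05.

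The 54 organ differences became 20 and 91 with pseudocounts of 0.1 and 5 TPM, 11 with a 2-fold minimum, 211 with library weights, 186 with the replicate block and 25 to 72 with 1 library left out. With title number 5 left out in both organs (added after the data were seen) there were 72. Among the IDs given whose change was called, that of Glyur000380s00017141 was lost in the fit of 18 libraries, without the replicate block as well as with it, and no other call was lost with the block. The difference in listed TPM, 12 h minus 6 h, was -1373 and ranged from -10485 to 4262 with 1 library left out, changing sign in 3 of 6 cases. The cause of these shifts was not tested. Depth is unknown, so no counting error is given.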
